A study of Rattus norvegicus with 18 samples.

Results

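The genes described here are 9 genes of B cells, plasma cells, and lymphoid follicles, out of 22081 genes in the deposited tables. They were chosen by name. *Ms4a1*, *Cd79a*, and *Cd79b* encode CD20 and the 2 signalling chains of the B cell receptor. *Mzb1*, *Jchain*, and *Tnfrsf17* encode products of antibody-secreting cells, and *Cxcl13*, *Cxcr5*, and *Ltb* encode a chemokine, its receptor, and the membrane-bound lymphotoxin chain. RNA-seq data of lungs from 18 male F344 rats, an inbred strain, were analysed. At Years 0.5, 1, and 2 of the experiment, 3 vehicle control rats and 3 rats treated with MWCNT (treated rats) were examined, each rat being a separate animal. From 9 weeks of age, treated rats were instilled intratracheally every 4 weeks with MWNT-7, a multiwalled carbon nanotube, at 0.5 mg/kg body weight, and the control rats received the vehicle, saline with Tween 80. RNA came from small pieces of the accessory lobe without tumors, so the values describe whole tissue. The question of the comparisons was which of these genes differ between exposed and control lungs at each time point, and whether the difference moves with time.

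Mature B cells carry a surface receptor made of immunoglobulin with the CD79A and CD79B chains. When a B cell becomes a plasma cell, it shuts down many of these surface and receptor genes and expresses the machinery of antibody secretion, including the J chain that joins immunoglobulin subunits. In lymphoid follicles, CXCL13 made by stromal cells and some macrophages attracts cells with CXCR5, and lymphotoxin from lymphocytes maintains the stromal cells. In the lung, such follicles lie along the bronchi and can also form in chronic inflammation.

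The libraries held 13297643 to 17868851 counted reads in control rats and 14661589 to 21130757 in treated rats. Levels are given as TPM, a value per gene length and library. Over genes with 10 or more counts in each of the 6 rats, the median log2 ratio of mean TPM between treated and control rats was -0.16, -0.23, and -0.23 at Years 0.5, 1, and 2, so TPM ranges lean toward lower values in treated rats. Fold changes are therefore given from the counts with TMM scaling, for which the median over all tested genes was -0.02, 0.00, and -0.01. A gene was called a DEG where the quasi-likelihood test of edgeR gave an FDR (Benjamini-Hochberg) below 0.05 and the log2 fold change lay above 1 or below -1. Summed TPM of 7 macrophage markers was 144 to 228 in control rats and 572 to 882 in treated rats, and that of 5 heart muscle markers, which were detected in the lung pieces, was 72.9 to 654 and 15.6 to 202. The part of these differences in tissue composition in the results was not tested.

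At Year 0.5, *Cd79b* was the 1 gene of the 9 called lower, and *Jchain* was the 1 called higher, where 3.03% and 6.07% of all 14315 tested genes were called lower and higher. At Year 1, *Jchain* was again the 1 gene called higher and 0 genes were called lower, against 6.13% and 4.09% of 14345 genes. At Year 2, *Jchain* was called higher and *Cd79b* lower, against 8.17% and 8.22% of 14361 genes, while the call of *Jchain* at Year 2 was lost when any 1 of 3 rats was left out. *Cxcl13*, *Cxcr5*, *Ms4a1*, *Cd79a*, *Mzb1*, *Tnfrsf17*, and *Ltb* were called at no time point. *Tnfrsf17* was tested at Year 0.5 only, since its counts were too low for testing at Years 1 and 2. With the FDR alone, without a limit on the fold, 2 of 9, 3 of 8, and 2 of 8 tested genes of the set were higher. Of all tested genes, 20.2%, 21.6%, and 25.2% were higher. In the set, 3, 0, and 1 were lower, against 18.6%, 19.6%, and 24% of all tested genes.

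**Figure D1:**
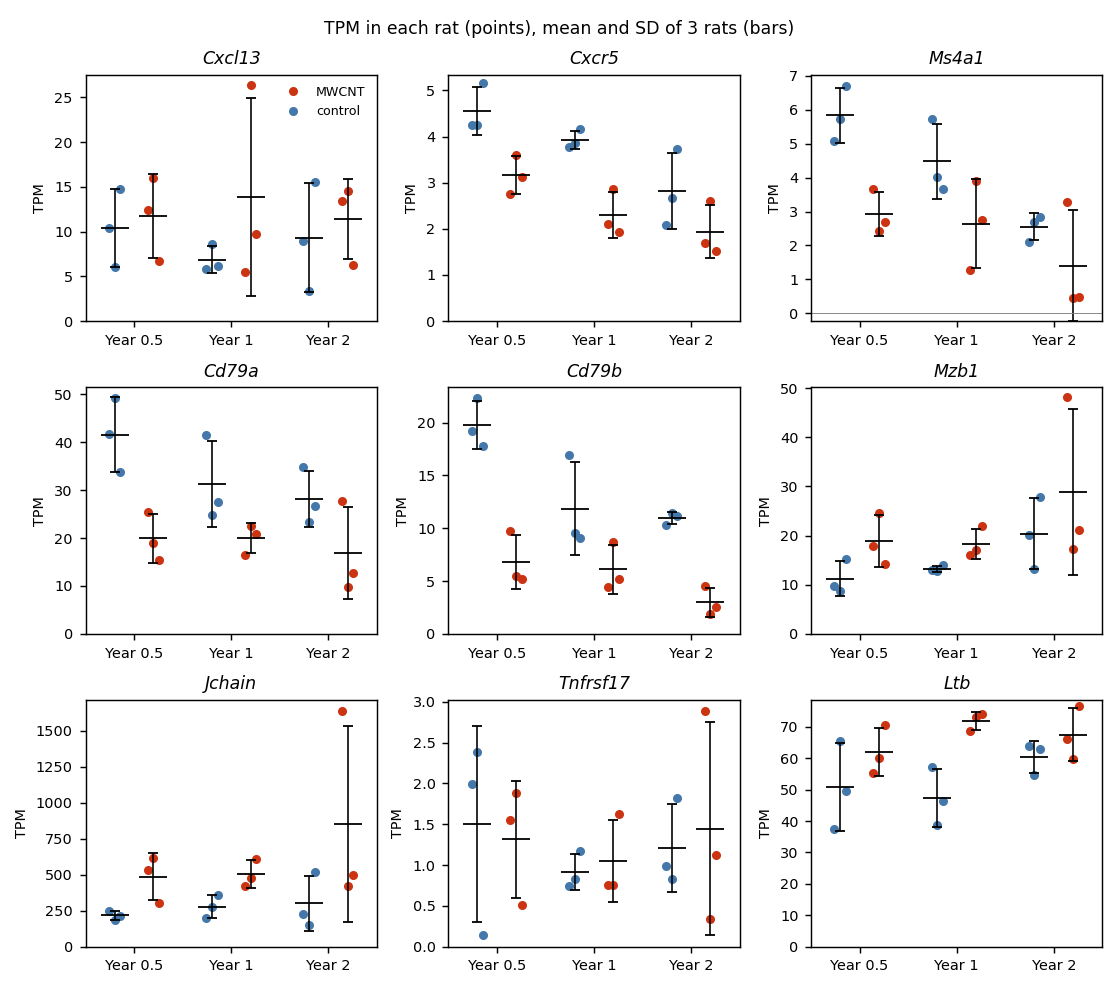
TPM (vertical axis, linear) of the 9 genes in each of 18 rats by year (horizontal axis), with control rats in blue and treated rats in red. Black bars give the mean and SD of 3 rats. *Cd79b* lies lower in treated rats at each time point, and *Jchain* of 1 treated rat of Year 2 stands at 1634.

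The TPM of *Cd79b* was 19.2, 22.3, and 17.8 in control rats and 9.74, 5.50, and 5.20 in treated rats of Year 0.5. The values of Year 1 were 17.0, 9.55, and 9.07 in control rats and 4.42, 8.74, and 5.20 in treated rats. At Year 2, it was 10.3, 11.4, and 11.1 in control rats and 4.50, 1.84, and 2.58 in treated rats. The groups did not overlap at any of the time points, but the gap at Year 1 was narrow. On the log2 scale, *Cd79b* fell by 1.40 (SE 0.24, FDR = 0.00213) at Year 0.5 and by 1.67 (SE 0.32, FDR = 0.00216) at Year 2, and the log2 fold change at Year 1 was -0.69 (SE 0.34, FDR = 0.137). Less RNA of such a gene in whole lung can mean fewer cells of the type or less RNA per cell, which cannot be told apart in these data.

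*Cd79a*, the partner chain of the same receptor, had TPM of 33.8 to 49.2 in control rats and 15.3 to 25.3 in treated rats of Year 0.5. Its log2 fold change was -0.92 (SE 0.20, FDR = 0.00638), which passed the FDR and not the limit on the fold. At Years 1 and 2, the values were -0.40 (SE 0.22, FDR = 0.178) and -0.54 (SE 0.36, FDR = 0.244). The 3 treated rats of Year 2 had 27.7, 9.86, and 12.8 TPM, and replicate 1 lay within the range of the control rats, 23.4 to 34.7. An entry named *Cd79al* on chromosome 9 had 0 counts in 17 of 18 rats, so few reads were assigned to this entry in place of *Cd79a*.

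*Ms4a1* encodes CD20, which mature B cells carry and plasma cells lose. Its TPM at Year 0.5 was 5.07, 5.73, and 6.69 in control rats and 3.66, 2.44, and 2.70 in treated rats. The groups did not overlap, and the log2 fold change was -0.85 (SE 0.25, FDR = 0.0255), below the fold limit of a call. At Year 1, it was 3.67 to 5.74 in control rats and 1.28 to 3.90 in treated rats, with a log2 fold change of -0.49 (SE 0.41, FDR = 0.354). At Year 2, the control rats had 2.09, 2.70, and 2.85 and the treated rats 3.29, 0.450, and 0.487, so that replicate 1 lay above all controls and the other two far below. The log2 fold change of -0.64 had a wide 95% interval, from -2.19 to 0.91. These values rest on 5 to 32 counts in treated rats of Year 2.

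The follicle chemokine and receptor showed no call. *Cxcl13* TPM was 10.4, 6.08, and 14.7 in control rats and 12.4, 16.0, and 6.71 in treated rats at Year 0.5. In the rats of Year 1, it was 5.84, 8.61, and 6.15 against 5.43, 26.4, and 9.76. At Year 2, it was 8.95, 3.39, and 15.6 against 13.4, 14.5, and 6.22. The groups overlapped at each time point, and at Year 1 the highest and the lowest of the 6 rats were both treated. The log2 fold changes were 0.33 (95% interval -0.50 to 1.17), 1.29 (0.11 to 2.48), and 0.52 (-0.58 to 1.62), with FDR of 0.51, 0.0762, and 0.402. Without replicate 1 of the treated rats of Year 1, *Cxcl13* was called higher at that time point, by 1.68 (FDR = 0.0132), and without replicate 2, the treated rat with 26.4 TPM, the log2 fold change was 0.34 (FDR = 0.414). *Cxcr5*, the receptor on B cells and follicular helper T cells, had 4.24 to 5.16 TPM in control rats and 2.76 to 3.59 in treated rats at Year 0.5, and 3.77 to 4.15 and 1.94 to 2.87 at Year 1. The groups did not overlap at these time points, yet its log2 fold changes of -0.37 and -0.52 had FDR of 0.223 and 0.139. The value at Year 2 was -0.32 (FDR = 0.472).

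In TPM, the 3 treated rats lay below all control rats for 4 of 9 tested genes of the set at Year 0.5, 3 of 8 at Year 1, and 1 of 8 at Year 2. Of all tested genes, 40.7%, 46.8%, and 45.7% did so. The treated rats lay above all control rats for 1, 3, and 0 of the tested genes of the set, against 17%, 15%, and 18.1% of all tested genes.

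*Jchain* had the highest TPM of the 9 genes in every rat. It was 247, 188, and 216 in control rats and 534, 617, and 303 in treated rats of Year 0.5. At Year 1, it was 201, 276, and 358 against 421, 476, and 612. The treated rats lay above the control rats without overlap at both time points. The log2 fold change was 1.31 (SE 0.24, FDR = 0.00253) at Year 0.5 and 1.09 (SE 0.20, FDR = 0.00239) at Year 1. At Year 2, the control rats had 228, 153, and 520 and the treated rats 1634, 419, and 496. The groups overlapped, since replicate 3 of the control rats exceeded 2 of the treated rats. The log2 fold change was 1.74 (SE 0.58, FDR = 0.0321), and without replicate 1 of the treated rats it was 0.81 (FDR = 0.145). The call was also lost without replicate 1 (FDR = 0.109) or replicate 2 (FDR = 0.104) of the control rats of Year 2, and at Year 1 without replicate 1 of the control rats (0.92) or replicate 3 of the treated rats (0.95), where the fold fell below the limit.

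*Mzb1*, an endoplasmic reticulum protein that assists antibody assembly and secretion, had 8.75 to 15.3 TPM in control rats and 14.3 to 24.7 in treated rats at Year 0.5. Year 1 gave 12.8 to 14.0 against 16.0 to 21.9, without overlap. The log2 fold changes of 0.90 (SE 0.27, FDR = 0.0273) and 0.70 (SE 0.16, FDR = 0.00731) passed the FDR and stayed below the fold limit. At Year 2, the treated rats had 48.1, 17.2, and 21.2 TPM, and the log2 fold change was 0.72 (SE 0.40, FDR = 0.164). Replicate 1 of these rats was thus the highest in *Jchain*, *Mzb1*, *Ms4a1*, and *Cd79a* among the 3, and also in *Cd79b* and *Tnfrsf17*. *Tnfrsf17*, the receptor BCMA of plasma cells, had 0.140 to 2.88 TPM over the 18 rats, from 1 to 22 counts, and its log2 fold change at Year 0.5 was -0.01 (95% interval -1.68 to 1.65).

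*Ltb*, the lymphotoxin chain expressed by B cells, T cells, and other lymphocytes, had 37.6 to 65.6 TPM in control rats and 55.4 to 70.5 in treated rats at Year 0.5. Its values at Year 1 were 57.1, 38.8, and 46.3 against 68.6, 73.0, and 74.0, without overlap, and the log2 fold change was 0.84 (SE 0.14, FDR = 0.00195). At Years 0.5 and 2, the log2 fold changes were 0.43 (SE 0.18, FDR = 0.0907) and 0.37 (SE 0.11, FDR = 0.0225). None of these reached the fold limit, but without replicate 1 of the control rats of Year 1 the value of that year was 1.01 (FDR = 0.000614). Summed TPM of 10 T cell markers was 138 to 181 in control rats and 92.7 to 102 in treated rats at Year 0.5, 157 to 188 and 78.2 to 133 at Year 1, and 208 to 211 and 64.5 to 87.3 at Year 2. The part of T cells in *Ltb* was not tested.

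**Figure D2:**
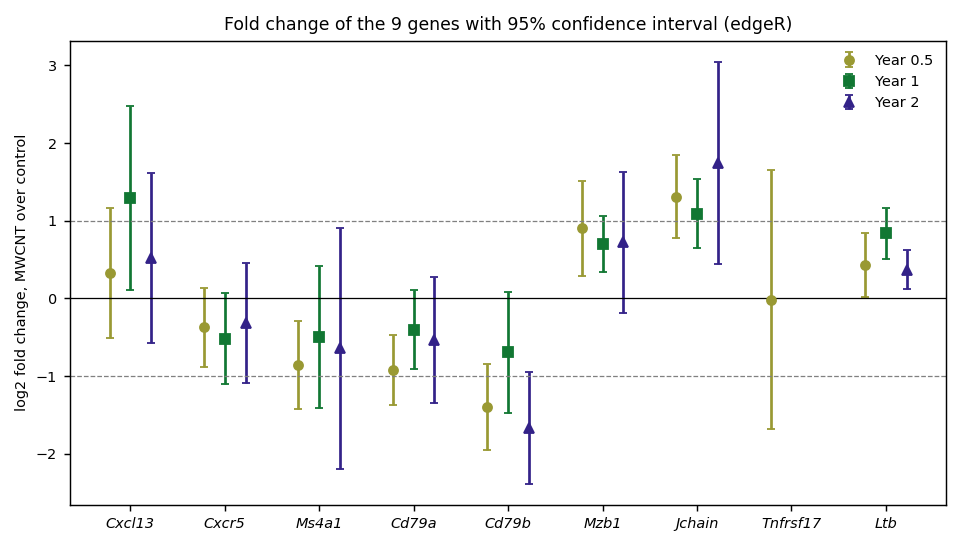
Log2 fold change of treated over control rats (vertical axis) for the 9 genes, by year, with 95% confidence intervals from edgeR. Dashed lines mark the fold limit of a call. *Jchain* lies above 1 at each time point, with its widest interval at Year 2, and *Cd79b* lies below -1 at Years 0.5 and 2.

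The ratio of *Jchain* to *Cd79b* TPM within a rat does not depend on the scaling of the library. It was chosen after the values of both genes were known and is given as a description. The ratio was 8.42 to 12.9 in control rats and 54.8 to 112 in treated rats at Year 0.5. At Year 1, it was 11.8 to 39.5 against 54.5 to 118. At Year 2, it was 13.3 to 46.6 against 192 to 363. All 3 treated rats had the higher ratio at each time point, including Year 2, where *Jchain* itself overlapped. The ratio of *Cd79a* to *Cd79b*, 2 chains of 1 receptor, was 1.90 to 2.21 in control rats and 2.60 to 3.46 in treated rats at Year 0.5, 2.44 to 3.02 against 2.59 to 3.99 at Year 1, and 2.04 to 3.36 against 4.95 to 6.16 at Year 2. The groups overlapped at Year 1 and did not at Years 0.5 and 2.

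**Figure D3:**
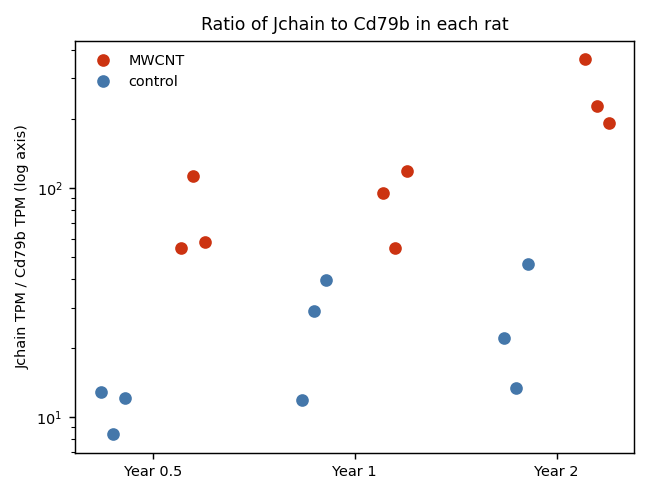
*Jchain* TPM divided by *Cd79b* TPM (vertical axis, log scale) in each rat by year, control rats in blue and treated rats in red. The treated rats of Year 2 lie between 192 and 363, and those of Years 0.5 and 1 between 54.5 and 118.

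Promoter sequences of RefSeq (build GRCr8), from 250 bases before to 50 bases after the gene start, were matched for 5 of the 9 genes. *Cxcr5*, *Ms4a1*, *Cd79b*, and *Mzb1* had no entry. The windows of *Cd79a* and *Jchain*, a B cell receptor gene and a plasma cell gene that differed in opposite directions, and of *Ltb*, which holds a motif match near its start, are shown 5′ to 3′ on the strand of the gene, at chr1:89621210-89621509 (plus), chr14:19822726-19823025 (plus), and chr20:3634005-3634304 (minus). Capitals mark matches to the kappa B core.
Cd79a: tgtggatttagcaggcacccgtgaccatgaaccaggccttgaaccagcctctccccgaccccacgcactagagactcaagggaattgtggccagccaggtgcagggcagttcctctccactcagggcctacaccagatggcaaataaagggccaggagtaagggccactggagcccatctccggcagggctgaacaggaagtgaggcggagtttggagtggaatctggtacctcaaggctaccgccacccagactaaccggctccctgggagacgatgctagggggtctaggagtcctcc
Jchain: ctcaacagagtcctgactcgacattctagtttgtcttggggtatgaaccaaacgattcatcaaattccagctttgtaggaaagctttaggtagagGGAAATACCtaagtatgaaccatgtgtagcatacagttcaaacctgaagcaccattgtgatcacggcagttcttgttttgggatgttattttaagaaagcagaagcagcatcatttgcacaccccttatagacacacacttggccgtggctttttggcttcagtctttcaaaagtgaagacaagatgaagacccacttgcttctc
Ltb: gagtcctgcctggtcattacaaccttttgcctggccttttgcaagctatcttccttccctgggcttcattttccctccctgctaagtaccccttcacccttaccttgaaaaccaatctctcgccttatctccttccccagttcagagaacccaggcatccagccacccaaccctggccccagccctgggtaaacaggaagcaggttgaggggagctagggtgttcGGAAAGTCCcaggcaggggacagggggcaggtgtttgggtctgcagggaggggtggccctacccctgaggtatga
The motifs searched on both strands were the octamer ATGCAAAT, the core of the EBF1 motif CCCNNGGG, which is its own reverse complement, and a core of the kappa B motif GGNNTTTCC. They were found in 1.78%, 12.4%, and 6.05% of 33469 rat promoters of the same length. Among the 5 genes, only the kappa B core was found, as GGAAATACC from base 96 of the *Jchain* window and as GGAAAGTCC from base 226 of the *Ltb* window, both read on the strand of the gene and so on its reverse strand as the motif. The matches overlapped no other motif. In the deposited tables, which use build Rnor_6.0 by the labels, *Cd79a* (ENSRNOG00000020125) lies on chromosome 1 at 81763614 to 81767980, *Jchain* (ENSRNOG00000003666) on chromosome 14 at 21177237 to 21183542, and *Cd79b* (ENSRNOG00000011917) on chromosome 10 at 94497448 to 94500591.

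Genes with related functions were described from lists. Of 18 genes of the B cell surface and of receptor signalling, 17 were tested at each time point. At Year 0.5, 2 were called higher and 3 lower, at Year 1 4 and 2, and at Year 2 5 and 3. Of all tested genes, 6.07%, 6.13%, and 8.17% were called higher and 3.03%, 4.09%, and 8.22% lower at Years 0.5, 1, and 2. The median log2 fold change of the list was -0.24, -0.11, and -0.24. The genes called lower included the adaptor *Bank1* and the co-receptor *Cr2*. *Bank1* fell by 1.16, 1.07, and 2.08 at Years 0.5, 1, and 2 (FDR = 0.00112, 0.000145, and 3.89e-06). *Cr2*, the complement receptor of B cells and follicular dendritic cells, fell by 1.08 at Year 1 and 2.03 at Year 2 (FDR = 0.0365 and 0.00553), and its log2 fold change at Year 0.5 was -0.96 (FDR = 0.00623). Its call at Year 1 was lost without control replicate 1 (-0.81, FDR = 0.116) or 2 (FDR = 0.0783) or treated replicate 1 (FDR = 0.0982) or 3 (FDR = 0.107). The call of *Bank1* at Year 0.5 was lost without treated replicate 2 (-0.98), on the fold limit alone. *Fcrl1*, a surface protein of B cells, fell by 1.53 (FDR = 0.0105) at Year 0.5, and its values of -0.23 and -0.78 later were not called.

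The genes of this list called higher at Year 2 were *Blnk*, *Cd72*, *Fcer2*, *Btk*, and *Cd180*. *Blnk*, an adaptor of the B cell receptor that macrophages also use, rose by 1.53, 1.90, and 2.44 on the log2 scale (FDR = 0.000287, 0.000349, and 1.16e-06). *Fcer2*, the low-affinity IgE receptor of B cells and macrophages, had 0.999 to 2.04 TPM in control rats and 5.96 to 6.51 in treated rats at Year 2, a rise of 2.24 (FDR = 0.00019). *Cd72*, a co-receptor, rose by 2.25 (SE 0.15, FDR = 4.47e-06) at Year 2, and its call at Year 1 was lost without control replicate 3 (0.96) or treated replicate 2 (0.79). Of 7 macrophage markers, 5, 4, and 6 were called higher at Years 0.5, 1, and 2 and 0, 1, and 0 called lower. A relation between these markers and the listed genes across rats was not computed. Of all tested genes, 6.07%, 6.13%, and 8.17% were called higher. Whether B cells or macrophages carried the RNA of the listed genes called higher was not tested.

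Of 7 transcription factors of the B lineage, 2 of 7 tested were called lower at Year 0.5. At Year 1 it was 1 of 6, and at Year 2 1 of 6, and 0 were called higher. Of all tested genes, 3.03%, 4.09%, and 8.22% were called lower. The medians of the list were -0.57, -0.21, and -0.38. *Spib*, a factor of B cells and plasmacytoid dendritic cells, fell by 1.10, 1.02, and 1.70 (FDR = 0.000901, 0.00846, and 0.00112). It missed the fold limit at Year 0.5 without treated replicate 2 (-0.97) and at Year 1 without replicate 1 of the control (-0.99) or treated rats (-0.78). *Pax5*, the factor that maintains B cell identity, had a log2 fold change of -1.97 (SE 0.68, FDR = 0.0476) at Year 0.5. This call was lost without any 1 of the 3 control rats (FDR = 0.0932, 0.147, and 0.0518 for replicates 1, 2, and 3), without treated replicate 1 (FDR = 0.132) or 3 (FDR = 0.114), and with no filter on low counts (FDR = 0.0534). *Pax5* did not pass the filter on counts later, where its TPM was 0.791 to 1.96 in control rats and 0.0944 to 0.204 in treated rats at Year 2.

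Of 13 genes listed for the plasma cell programme, 3, 2, and 4 were called higher at Years 0.5, 1, and 2, and 0, 0, and 1 lower. Of all tested genes, 6.07%, 6.13%, and 8.17% were called higher and 3.03%, 4.09%, and 8.22% lower. The list includes the epithelial receptor *Pigr*, which was called higher at each time point. At Year 1, the 2 listed genes called higher were *Pigr* and *Irf4*, so these counts do not describe plasma cells alone. The median log2 fold change of the list was 0.44, 0.49, and 0.66. *Irf4*, a factor needed for plasma cells that macrophages and T cells also express, rose by 1.25, 1.10, and 1.55 (FDR = 0.00143, 0.000489, and 0.000439), with a value of 0.99 at Year 1 without control replicate 2. *Pigr*, the epithelial receptor that carries polymeric antibody across the airway lining, had 386 to 559 TPM in control rats and 959 to 1251 in treated rats at Year 2, a rise of 1.54 (SE 0.16, FDR = 5.63e-05). *Derl3*, of the degradation of proteins from the endoplasmic reticulum, rose by 1.22 (FDR = 0.0119) at Year 2, and *Slamf7*, a surface protein of plasma cells and other leukocytes, rose by 1.20 and 1.09 at Years 0.5 and 2 (FDR = 0.0022 and 0.0173). The kinase *Pim2* fell by 1.01 (FDR = 0.000704) at Year 2. At that time point, the call of *Derl3* was lost without treated replicate 2 (FDR = 0.0554), and those of *Slamf7* (FDR = 0.063 and 0.0683) and *Pim2* (-0.98 and -0.93) without control replicate 2 or treated replicate 1. *Xbp1* and *Prdm1*, the central factors of secretory differentiation, had log2 fold changes of 0.20 and 0.06 at Year 2 and were not called.

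**Figure D4:**
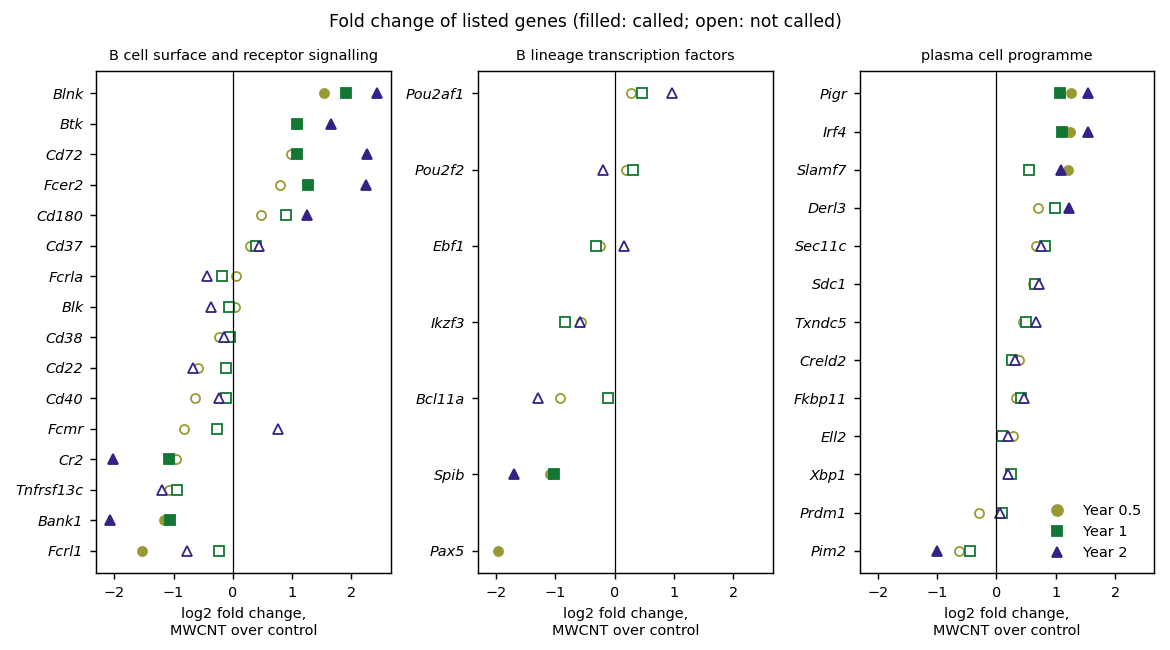
Log2 fold change of treated over control rats (horizontal axis) for tested genes of 3 lists, ordered by the value at Year 0.5, with symbols for Years 0.5, 1, and 2. Filled symbols were called and open symbols were not. In the first list, *Blnk* at 2.44 and *Bank1* at -2.08 are the extremes shown for Year 2.

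The list of 2 immunoglobulin entries held *Igh-6*, a heavy chain entry, and *Ighg1*, which had 0 TPM in all rats. *Igh-6* rose by 1.44 (FDR = 0.0289) and 1.14 (FDR = 0.0168) at Years 0.5 and 1, and its value at Year 2 was 0.80 (FDR = 0.247). At Year 0.5, its TPM was 258, 333, and 442 in control rats and 862, 1341, and 313 in treated rats, so the groups overlapped. Fits with a rat left out were not examined for this entry. How reads of the near-identical immunoglobulin genes were assigned is not given in the sources used here, and these values are uncertain.

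Of 10 tested genes of germinal centres and follicular helper T cells, 3 were called higher and 2 lower at Year 0.5. It was 0 and 2 at Year 1 and 1 and 1 at Year 2, with medians of 0.27, 0.13, and 0.03. Of all tested genes, 6.07%, 6.13%, and 8.17% were called higher and 3.03%, 4.09%, and 8.22% lower. *Gcsam*, a signalling protein of germinal centre B cells, rose by 1.79 and 1.24 at Years 0.5 and 2 (FDR = 0.000174 and 0.00677), the latter missing the fold limit without treated replicate 1 (0.89). *Icos* and *Pdcd1*, which encode regulatory surface receptors of T cells, were the others called higher at Year 0.5, with rises of 1.41 and 1.50. Fits with a rat left out were not examined for *Icos* and *Pdcd1*. *Cd40lg*, the T cell ligand that licenses B cells, fell by 1.29, 1.06, and 1.77 (FDR = 0.0126, 0.0306, and 0.00991). Its call was lost at Year 0.5 without treated replicate 2 (FDR = 0.0611), and at Year 1 without control replicate 1 (FDR = 0.0853) or 2 (FDR = 0.104) or treated replicate 1 (FDR = 0.0907) or 3 (FDR = 0.0713). *Rgs13*, a regulator of chemokine signalling in germinal centre B cells and mast cells, fell by 1.54 and 1.49 at Years 0.5 and 1 (FDR = 0.00585 and 0.0266), and its value at Year 2 was -0.10. The call at Year 1 was lost without control replicate 1 (FDR = 0.096) or 2 (FDR = 0.0676) or treated replicate 2 (FDR = 0.0823) or 3 (FDR = 0.0785). On log2(TPM + 1) in limma, *Cd40lg* (-0.75 and -0.65) and *Rgs13* (-0.71 and -0.57) missed the fold limit at Years 0.5 and 1. *Il21*, a follicular helper cytokine, did not pass the filter on counts.

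Among ligands and receptors of lymphoid tissue, 1, 1, and 0 of 10, 10, and 11 tested genes were called higher and 0, 0, and 1 lower. The medians were -0.16, 0.21, and 0.15. For this and the lists below, 6.07%, 6.13%, and 8.17% of all tested genes were called higher and 3.03%, 4.09%, and 8.22% lower. The lymphoid tissue gene called higher was *Tnfrsf11a*, which encodes the receptor RANK, with rises of 1.07 and 1.15. *Ccl21*, the chemokine of lymphatic vessels and T cell zones, fell by 1.08 (SE 0.10, FDR = 2.61e-05) at Year 2, from 354 to 404 TPM in control rats to 140 to 176 in treated rats. It was not called at Years 0.5 and 1. Its TPM was 316 to 375 in control and 158 to 219 in treated rats at Year 0.5. At Year 1, it was 332 to 344 against 193 to 202. Of the alternative NF-kB pathway and of high endothelial venules and adhesion, 0 genes were called, and the medians were 0.39, 0.65, and 0.27 for the first and -0.26, -0.01, and -0.39 for the second. Among survival cytokines and their receptors, only 3, 2, and 3 genes were tested, with medians of 0.45, 0.73, and 0.51. *Tnfsf13*, which encodes APRIL, a factor for plasma cells, was called at Years 1 and 2, with rises of 1.11 and 1.03 (FDR = 2.1e-05 and 1.68e-05). At Year 0.5, *Tnfsf13* was not called, with 59.5 to 72.6 TPM in control rats and 117 to 125 in treated rats. At Year 2, it missed the fold limit without replicate 1 of the control (0.95) or treated rats (0.99). T cell and NK cell markers were lower too, with 9 of 10 and 3 of 5 called lower at Year 2 and 0 at Years 0.5 and 1. With the FDR alone, 7, 2, and 10 of the 10 T cell markers were lower at Years 0.5, 1, and 2. For NK cell markers it was 4, 5, and 3 of 5, against 18.6%, 19.6%, and 24% of all tested genes. At each time point, 0 of these markers had a log2 fold change above 0. The interaction of treatment and time was called for 0 of them. Dendritic cell markers had 2 of 5 called higher and 0 called lower at each time point, and 1 of 5 was lower with the FDR alone. Their summed TPM at Year 0.5 was 38.0 to 41.4 in control rats and 46.1 to 60.3 in treated rats. At Year 1, it was 39.3 to 46.4 against 40.0 to 45.4, and at Year 2 36.21 to 38.97 against 27.91 to 36.16. Markers of lung epithelium and endothelium had 1, 1, and 2 of 8 called higher and 0, 0, and 2 lower. The heart muscle markers had 5, 0, and 1 of 5 called lower.

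The change between time points was tested in 1 model of the 18 rats. The interaction of treatment and time was called for 0 of the 9 genes between Years 2 and 0.5, Years 1 and 0.5, and Years 2 and 1, where 1.31%, 0%, and 0.478% of 14843 genes had an FDR below 0.05. At an unadjusted p below 0.05, 0 of the 9 genes passed in edgeR, and DESeq2 called 0. The interaction of *Cd79b* between Years 2 and 1 was -0.96 (SE 0.49, FDR = 0.343). Between Years 2 and 0.5, 0 of the 9 genes were called within treated lungs and 0 within control lungs, against 2.34% and 0.633% of genes. At an unadjusted p below 0.05, 2 genes passed in treated lungs and 4 in control lungs, and DESeq2 called 1 and 0. In control lungs, the log2 fold change of Year 2 over Year 0.5 was -1.19 (FDR = 0.17) for *Ms4a1*, -0.84 (FDR = 0.12) for *Cd79b*, -0.69 (FDR = 0.111) for *Cxcr5*, and 0.86 (FDR = 0.154) for *Mzb1*. In treated lungs, it was -1.11 (FDR = 0.056) for *Cd79b* and -0.62 (FDR = 0.131) for *Cxcr5*.

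Across the 18 rats, 3 relations were computed from log2 CPM as deviations from the group mean, with two-sided exact permutation over the 46656 orders within groups. *Cxcl13* and *Jchain* had Pearson's r = 0.55 (exact permutation p = 0.0543, adjusted 0.163) and Spearman's rho = 0.55 (p = 0.0558, adjusted 0.167), and r = 0.44 when the 2 rats with the most extreme *Cxcl13* were left out. *Cxcl13* and *Ms4a1* had r = 0.40 (exact permutation p = 0.188, adjusted 0.188) and rho = 0.31 (p = 0.301, adjusted 0.301), and r = 0.35 without the 2 farthest rats. *Ms4a1* and *Jchain* had r = 0.59 (exact permutation p = 0.13, adjusted 0.188) and rho = 0.32 (p = 0.301, adjusted 0.301), and r fell to 0.31 without the 2 farthest rats of *Ms4a1*. None passed the adjusted threshold.

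**Figure D5:**
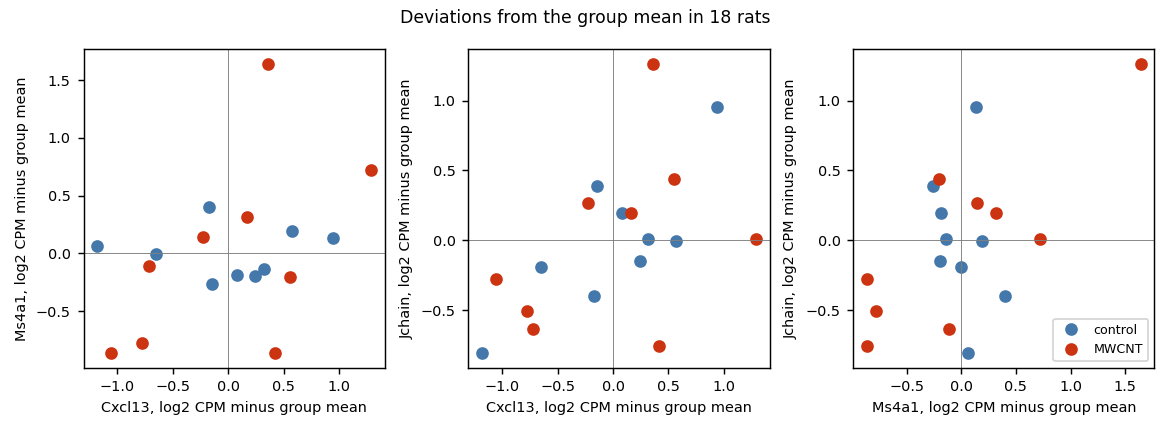
Deviations of log2 CPM from the group mean for 3 pairs of genes, 1 point for each of 18 rats, control rats in blue and treated rats in red. In the pair of *Ms4a1* and *Jchain*, 1 treated rat is the highest on both axes, and r is 0.59 with it and 0.31 without the 2 farthest rats.

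As a description over the same 18 rats and 14843 genes, the genes most like *Cxcl13* by r were *Folr2* (0.93), *Dcn* (0.93), and *Ndufc2* (0.92). For *Ms4a1* they were AABR07072262.1 (0.87), AC109737.1 (0.85), and *Btla* (0.85), an inhibitory receptor of lymphocytes. For *Jchain* they were AABR07060872.1 (0.95), AABR07034739.1 (0.94), and *Pkp4* (0.93). All genes of 1 rat share its library depth and tissue piece, and the points of 1 group are not independent of its mean. These genes were picked as the highest of 14843, so a high r comes in part from the selection.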

How the data were processed

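RNA-seq of 18 rat lungs was analysed. With CLC Genomics Workbench 22.0.2, the authors aligned reads to a rat reference and deposited raw counts for each gene and TPM values. The submitters' notes name build Rnor_6.0. How reads with several alignments were treated is not given in the sources used here. The 36 deposited RPKM and CPM columns and the authors' comparison columns (fold changes and p-values) were not used. Groups came from the labels. Counts were tested in R 4.3.3 with edgeR 4.0.16 (filterByExpr, minimum count 10, minimum total count 15, TMM, quasi-likelihood test on the 6 rats of each time point, Benjamini-Hochberg FDR over all tested genes). Interactions and effects of time were tested in 1 model of 18 rats. Alternatives used DESeq2 1.42.0 and limma 3.58.1 on log2(TPM + 1) and log2(TPM + 0.1). Permutations ran in Python 3.11.15. No libraries were identical. Named genes were the 9 genes, up to 4 genes per list with the largest change among those called at Year 2, and every listed gene called lower. *Cd180*, *Btk*, *Xbp1*, *Prdm1*, *Il21*, *Cd79al*, *Icos*, *Pdcd1*, *Tnfrsf11a*, *Msr1*, and *Mrc1* were named after their values were seen. The immunoglobulin entries *Igh-6* and *Ighg1* formed a list of their own and were named outside the rule on calls. The genes and lists were chosen with earlier results of these data known. With 3 rats in a group, the spread between rats sets the precision. The motif cores were chosen after the data were seen. Some listed genes are not reported here.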

Additional observations from a re-analysis of the deposited data

Results flagged for a closer look

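The interaction of treatment and time, tested in the model of 18 rats, passed an FDR of 0.05 for 4 listed genes and for 0 of the 9 genes. The lists held 80 genes and 40 cell type markers in the deposited data, not all of which were tested. Of all 14843 tested genes, 1.31% passed between Years 2 and 0.5, and 0.478% between Years 2 and 1. Fits with a rat left out were not examined for these interactions. *Cd72* rose more at Year 2 than at Year 0.5, by 1.28 on the log2 scale (SE 0.31, FDR = 0.0494). *Pdcd1*, an inhibitory receptor of T cells, differed by -1.96 (SE 0.32, FDR = 0.0077) between Years 2 and 0.5. All 3 treated rats lay above the control rats in TPM at Year 0.5, as for 17% of all tested genes. The log2 fold change was 1.50 (FDR = 0.00123). At Year 2, all 3 lay below the control rats in TPM, as for 45.7% of all tested genes. The log2 fold change was -0.46 (FDR = 0.191) and was not called. In control rats, TPM of *Pdcd1* was 1.31 to 1.89 at Year 0.5 and 4.48 to 6.69 at Year 2. In treated rats, it was 3.87 to 4.29 and 2.59 to 4.33. The control rats of the 2 time points thus did not overlap, while the treated rats did. The macrophage scavenger receptor *Msr1* rose more at Year 2 than at Year 0.5, by 0.93 (SE 0.18, FDR = 0.0209), and than at Year 1, by 0.91 (SE 0.18, FDR = 0.039). The mannose receptor *Mrc1* rose more at Year 2 than at Year 1, by 1.06 (SE 0.20, FDR = 0.0309).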

How the results depend on the processing

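Among the 9 genes, 1 was called higher at each time point, and 1, 0, and 1 were called lower at Years 0.5, 1, and 2. With the FDR alone, 2, 3, and 2 were called higher and 3 were called lower at Year 0.5. Scaling by library size only, which shifts the median log2 fold change of all genes by -0.10, -0.13, and -0.17, gave 0 higher at Year 1, 2 lower at Year 0.5, and 1 in treated lungs between Years 2 and 0.5. On log2(TPM + 1) and on log2(TPM + 0.1), limma gave 0 higher at Years 1 and 2, since *Jchain* had 0.88 at Year 1, and 2 lower at Year 0.5. DESeq2 gave 0 higher at Year 2 (FDR = 0.0613 for *Jchain*) and 1 in treated lungs over time. The model of 18 rats gave 0 higher at Year 1 and an FDR below 0.01 gave 0 at Year 2. Leaving out single rats, genes called higher numbered 1 to 2, 0 to 2, and 0 to 1, and genes called lower 1 to 3, 0 to 1, and 1 to 3. The counts moved at Year 0.5 without control replicate 3 or treated replicates 1 or 3, and at Year 1 without treated replicates 1, 2, or 3. Without replicate 1 of the treated rats of Year 2, *Ms4a1* (-2.21), *Cd79a* (-1.13), and *Cd79b* (-2.11) were all called lower at that time point. The effects of time gave 0 to 2 calls in treated and 0 to 1 in control lungs when a rat was left out, with moves without control replicate 1 or treated replicate 2 of Year 1 or treated replicate 1 of Year 2.

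Same-numbered control and treated rats did not deviate together (mean r 0.00685, from -0.147 to 0.107, across genes). With few rats in a group, such values cannot exclude a pairing. The labels number the rats within each group and state no pairing. The replicate block gave 2 genes higher at Year 1 (*Cxcl13*, FDR = 0.0368, besides *Jchain*) and 1 call in treated lungs over time. *Tnfrsf17* at Year 0.5 (-0.01) turned to 0.0376 with the replicate block, 0.23 on log2(TPM + 0.1), and ranged from -0.55 to 0.44 with a rat left out, all without a call. No other result changed direction under the alternatives run. The cause of these changes was not tested.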
